A study of Mus musculus with 14 samples.

Results

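Dimethylation of histone H3 at lysine 36 (H3K36me2) was profiled by CUT&RUN in tumor-derived mouse cells that had received either sgControl, a control guide RNA, or sgNSD3, a guide that targets Nsd3, and the authors deposited 2 columns of H3K36me2 scores over gene bodies, called sample 1 and sample 2. The gene bodies described are all rows of that table except the 13 with symbols starting mt- and the 462 at 0 in each of its 3 columns, which left 21995 of 22470. Behind the 2 columns stand 4 of the study's 14 samples, 2 H3K36me2 libraries from sgControl cells and 2 from sgNSD3 cells. The third column holds H3K27me3, from 1 library per condition, and 6 RNA samples, 3 per condition, complete the data used here.

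Both conditions share the C57BL/6 strain, passages 6 to 8 and the same H3K36me2 antibody, and they differ by the guide. The labels name no tumor type, and they do not say that libraries came from separate cultures, so RNA p-values reflect only how far these samples scatter, possibly for technical reasons. They list an IgG sample for each condition, but both carry an H3K36me2 antibody label and the one titled sgNSD3 has an sgControl source, and no IgG value was used. The chromatin table has signed scores, 1 per gene body and column. Neither the libraries contrasted, nor their order, nor any use of IgG is stated in it. A high score is therefore described below only as a high score, not as more or less methylation in either condition, and the depth behind the scores is unknown.

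H3K36me2 is written by the NSD family of enzymes (NSD1, NSD2 and NSD3) and by ASH1L, and in mammalian cells it covers broad stretches of genes and of the space between them. SETD2 adds the third methyl group in the bodies of transcribed genes. Methylation of lysine 36 hinders PRC2, the enzyme complex that places H3K27me3, a mark of silenced genes. CUT&RUN uses an antibody to direct a nuclease to chromatin in intact nuclei, so that DNA under the mark is released and sequenced.

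The sequences before the start of 4 gene bodies from the ends of the ranking are shown because the gene bodies low in both columns were mostly silent and had few CpG dinucleotides at their starts. They were taken after the values were seen, as the first ranked with 1 promoter entry and, at the high end, tested RNA outside the overlapping Ugt1a genes, and at the low end, mean RNA under 8 normalized counts. Each is the 250 bases before a transcript start in RefSeq, 5′ to 3′ on the gene's strand, on GRCm38.p6, the assembly also called mm10. For Olfr1095 this window lies inside the gene's full RefSeq span, and for the others it abuts the span. Capitals mark each CG, which reads the same on both strands. Aida and Slc30a4 are from the high end, and Olfr1095 and Rhox2a from the low end.
Aida (chr1:183296810-183297059, plus strand): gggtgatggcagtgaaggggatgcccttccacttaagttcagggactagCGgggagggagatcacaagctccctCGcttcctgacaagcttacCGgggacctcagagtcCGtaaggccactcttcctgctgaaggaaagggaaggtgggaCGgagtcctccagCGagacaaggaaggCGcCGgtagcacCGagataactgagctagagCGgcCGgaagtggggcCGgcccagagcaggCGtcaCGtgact
Slc30a4 (chr2:122702664-122702913, minus strand): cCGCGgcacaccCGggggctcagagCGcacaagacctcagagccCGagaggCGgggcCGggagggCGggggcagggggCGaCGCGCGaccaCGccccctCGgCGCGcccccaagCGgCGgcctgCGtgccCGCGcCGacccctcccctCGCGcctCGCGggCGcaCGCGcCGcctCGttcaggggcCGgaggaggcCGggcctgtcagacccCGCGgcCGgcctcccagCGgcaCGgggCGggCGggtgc
Olfr1095 (chr2:86851697-86851946, minus strand): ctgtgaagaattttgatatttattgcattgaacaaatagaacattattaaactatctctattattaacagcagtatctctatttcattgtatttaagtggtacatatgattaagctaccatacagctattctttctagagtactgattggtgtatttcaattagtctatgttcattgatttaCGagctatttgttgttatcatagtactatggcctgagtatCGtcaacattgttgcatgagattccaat
Rhox2a (chrX:37244742-37244991, plus strand): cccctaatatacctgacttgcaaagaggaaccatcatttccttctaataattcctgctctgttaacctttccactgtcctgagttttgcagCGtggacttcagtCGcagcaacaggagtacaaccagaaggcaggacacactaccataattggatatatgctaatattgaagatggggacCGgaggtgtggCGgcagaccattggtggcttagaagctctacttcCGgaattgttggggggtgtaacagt
The Slc30a4 sequence held 40 CG dinucleotides and that of Aida 14, against 5 in that of Rhox2a and 2 in that of Olfr1095. The RNA requirements differed between the ends, and CpG goes with RNA. Median CpG per promoter window was 20 for all gene bodies with RNA of 8 or more normalized counts and 3 for those under 8. The sequences shown therefore cannot tell the end of the ranking from the RNA level. Of all 32851 RefSeq promoter windows of 300 bases, 94.6% held at least 1 CG, with a median of 7 per window. These medians are for 300 bases and the sequences shown have 250. In the 300-base windows Slc30a4 held 46 CG, Aida 20, Rhox2a 8 and Olfr1095 2. Rhox2a thus lay above the medians of 3 and 7, and only Olfr1095 of the low end was CpG-poor by them.

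Most gene bodies had positive H3K36me2 scores in both columns, but the columns ordered them differently. In the authors' deposited table the median score was 0.0771 in sample 1 and 0.126 in sample 2, with 10th to 90th percentiles of 0.000604 to 0.155 and of 0.0244 to 0.248. Scores were above 0 in both columns for 19115 gene bodies (86.9%) and below 0 in both for 177 (0.805%). The signs were opposite for 950 gene bodies above 0 only in sample 1 (4.32%) and for 1603 above 0 only in sample 2 (7.29%). The columns thus differed in spread, so gene bodies were compared by percentile, the rank within a column from 0 to 100.

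Across the 21995 gene bodies Spearman's rho between the columns was 0.185. Pearson's r was 0.521, and it was 0.172 without the 1% most extreme values of either column and 0.419 without Drg1, Sfi1 and Aida alone. The columns may share libraries or processing, and gene bodies are not independent, so these coefficients describe the table and carry no test. The scores were also coarse. Rounded to 4 decimals, 646 gene bodies shared the score 0.0645 in sample 1 and 660 shared 0.1131 in sample 2, and the 12 commonest nonzero scores held 23.5% and 23.0% of gene bodies. How far this coarseness limits the rank agreement was not tested.

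**Figure D1:**
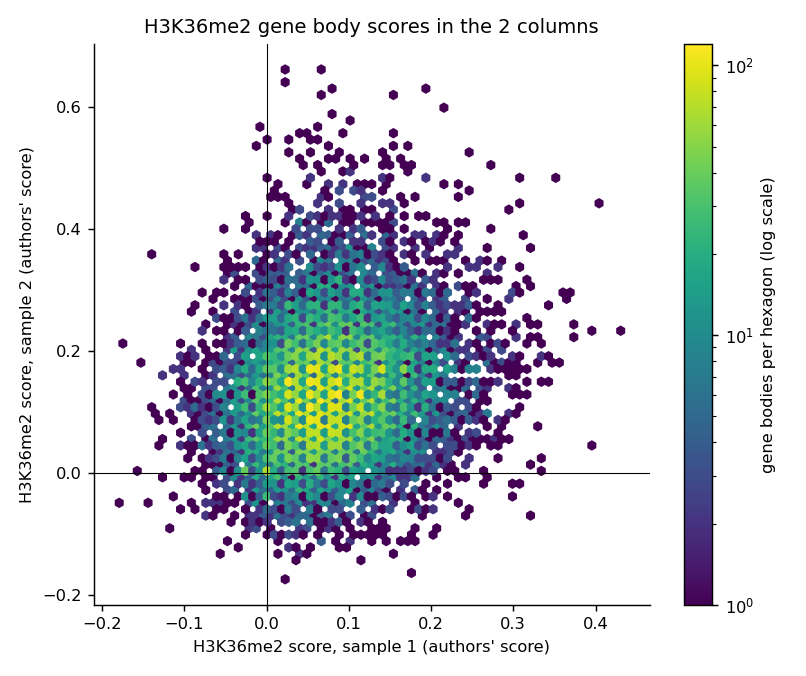
H3K36me2 score of each gene body in sample 1 (horizontal axis) and sample 2 (vertical axis), both in the authors' score units, with the number of gene bodies per hexagon in colour on a log scale. Of 21995 gene bodies 21976 are inside the axes and 19 outside; most lie above 0 in both columns in a broad cloud with little slope.

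Gene bodies high or low in both columns were defined as the highest 10% or the lowest 10% of each. The highest 10% shared 378 gene bodies, 17.2% of each column's 2200 and 1.72% of all gene bodies. The lowest 10% shared 467, 21.2% of each column's 2199 and 2.12% of all. Going the other way, 127 were in the highest 10% of sample 1 and the lowest of sample 2, and 123 were the reverse. The cutoffs fell within the bulk of the scores: members just inside and just outside the high cutoff both scored 0.155 in sample 1 and 0.248 in sample 2, and at the low cutoff both scored 0.000604 and 0.0244.

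The top of the ranking, by the lower of a gene body's 2 percentiles and without predicted symbols, was led by genes of mixed function. Drg1, a translation-associated GTPase, had scores of 3.86 and 4.59 in samples 1 and 2 of the authors' deposited table, and the centrosomal gene Sfi1, which lies close to it on chromosome 11, had 3.64 and 4.07. Aida, an axin-interacting gene on chromosome 1, had 2.28 and 5.11 beside the lowest H3K27me3 score of the 3, -1.91. These 3 stand far above the 90th percentiles of 0.155 and 0.248. A predicted gene outside that ranking, Gm10800, had scores of the same order, 2.52 and 4.03, with an H3K27me3 score of -1.41. H3K27me3 was at the low extreme for most of them, at percentiles of 0.00909 for Aida, 0.0136 for Gm10800, 0.0273 for Drg1 and 3.02 for Sfi1. The part of read placement in such extreme scores was not tested.

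Below them the scores were much smaller. Slc30a4, a zinc transporter, scored 1.12 and 0.47 in the deposited table. Polr2m, a subunit of a form of RNA polymerase II, scored 0.308 and 0.442, and Hjurp, the chaperone that loads the centromeric histone CENP-A, scored 0.319 and 0.368. Hjurp lies beside the Ugt1a genes, glucuronosyltransferases that share their downstream exons, of which Ugt1a6a scored 0.347 and 0.483, so such neighbours are not independent members. Acta2, smooth muscle actin, scored 0.27 and 0.4, and Tank, an adaptor of innate immune signalling, 0.244 and 0.463. Gzma, a protease of cytotoxic lymphocytes, scored 0.232 and 0.45 although its RNA was at 0 in all 6 samples.

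RNA of the high-ranked genes spanned a wide range. Mean RNA in the 3 sgControl samples was 35790 ± 1090 normalized counts for Acta2 (SD, n = 3), 2545 ± 76.4 for Slc30a4, 1276 ± 73.7 for Aida and 371.1 ± 17.7 for Sfi1. In bulk RNA, fewer cells with a transcript and less of it per cell cannot be told apart. A normalized count is a read count recovered from the deposited values and divided by the library's size factor. Acta2, Slc30a4, Aida and Sfi1 did not pass the RNA test between conditions at an adjusted p of 0.05. Their limma adjusted p was 0.913, 0.698, 0.931 and 0.993, in that order. Hjurp and Ugt1a7c, also at the top of the ranking, did pass. Hjurp was 1.07-fold higher with sgNSD3 (limma adjusted p = 0.0293) and Ugt1a7c 1.13-fold higher (limma adjusted p = 0.0149). Either call was lost without sgControl replicate 2 or without sgNSD3 replicate 1. That of Hjurp was also lost without sgNSD3 replicate 2 or the filter on low counts, and that of Ugt1a7c without sgNSD3 replicate 3.

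The bottom of the ranking held 7 chemosensory receptors among its 12 gene bodies. AW822073 had the lowest pair of scores, -0.267 and -0.188 in the deposited table. The odorant receptor Olfr827 scored -0.117 and -0.0852, Olfr1095 scored -0.0633 and -0.0724, and Olfr114 scored -0.0888 and -0.0521. Rhox2a, a homeobox gene of the reproductive cluster on X, scored -0.102 and -0.0595, and Vmn1r157, a pheromone receptor, -0.0508 and -0.0595. All of these had 0 normalized counts in both conditions. The exceptions among the 12 lowest were Akap13, a signalling scaffold with scores of -0.0625 and -0.0471 and RNA of 3503 ± 60.5 in sgControl (SD, n = 3), and the mitochondrial carrier Sfxn4, with -0.0591 and -0.0634 and RNA of 58.81 ± 7.97.

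Among gene bodies at opposite ends of the columns, Gm14226 scored -0.458 in sample 1 and 0.778 in sample 2 of the deposited table. S100a10, a partner of annexin A2, scored -0.139 and 0.353. The odorant receptor Olfr1459 went the other way, at 0.32 and -0.0645, as did Epgn, an EGF receptor ligand, at 0.244 and -0.0689. For these the 2 columns give no common rank.

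The concordant low and high groups differed in what genes they held. Median RNA was 0 normalized counts in the low group and 147 in the high group, beside 60 over all gene bodies with RNA matched by name. RNA was at 0 in 62.9% of the matched low group, in 6.91% of the high group and in 20.1% overall. Odorant receptors numbered 45 in the low group and 2 in the high group, and vomeronasal receptors 29 and 1. The low group thus held 4.15% of the odorant and 9.35% of the vomeronasal receptors, beside 2.12% of all gene bodies. Predicted symbols (Gm with a number, or ending in Rik) made up 50.5% of the low group, 14.3% of the high group and 12.4% of all. The low group held short genes on the whole, with a median span of 4860 bases, beside 26000 in the high group and 17300 overall.

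H3K27me3 scores ran weakly opposite to those of H3K36me2. The median H3K27me3 percentile was 67.7 in the concordant low group and 42.8 in the high group. The median H3K27me3 score was 0 in the low group, -0.0314 in the high group and -0.0258 over all gene bodies. Since 67.6% of gene bodies scored below 0 for H3K27me3, a score of 0 ranks above the middle there. The low group thus lay near 0 in all 3 columns, with median H3K36me2 scores of -0.0127 and -7.41e-05. Its higher percentile does not show raised H3K27me3. Across all gene bodies rho between H3K27me3 and H3K36me2 scores was -0.109 for sample 1 and -0.117 for sample 2. The 3 columns come from 1 table and the libraries behind each are not stated, and the part of shared processing was not tested.

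Gene classes were compared through 41 lists, 39 of them with at least 5 gene bodies, and a class was called low or high where its median percentile was at most 40 or at least 60 in both columns. By that rule 4 classes were low, 4 were high and 31 were neither. As a background, 28% of all gene bodies lay above the median in both columns and 28% at or below it in both.

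Chemosensory receptors were low in both columns. Odorant receptors, the G protein-coupled receptors that detect smells, numbered 1084 and had median percentiles of 32.6 in sample 1 and 30.6 in sample 2, with median scores of 0.0515 and 0.084. Of them 47.3% lay at or below the median in both columns and 9.69% above it in both. The 310 vomeronasal receptors, which detect pheromones, lay at 25.6 and 25.5, with 60.6% at or below the median in both. Median RNA of either receptor class was 0, and their median H3K27me3 percentiles were 80.4 and 80.3.

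The clustered protocadherins, adhesion proteins with which neurons tell themselves apart, had medians of 18.4 and 27 for 24 gene bodies. Of the 24, 14 had RNA of at least 8 normalized counts, as did 12 of the 1084 odorant and 2 of the 310 vomeronasal receptors. Pcdhb1, with no RNA, scored -0.0377 and -0.0121 in the deposited table, and Pcdhb22, with 331.3 normalized counts in sgControl, scored 0.000604 and 0.00418. Among gene bodies with RNA tested the 14 still had medians of 20.2 and 21.5. These genes share 1 locus on chromosome 18 and partly overlap, so they are close to 1 observation. The 2721 predicted genes had medians of 39.3 and 36.8, just inside the rule.

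Receptor genes are short, and length moved with the score. In the shortest of 10 length bins, with a median span of 942 bases, median percentiles were 33.8 and 33.2. In the longest bin, with a median span of 189000 bases, they were 56.3 and 56.8. Ranked within length bins, odorant receptors reached 47.2 and 44.0, which ends their call, while vomeronasal receptors stayed low at 31.9 and 32.8, as did the protocadherins at 23.0 and 31.4.

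The high classes lay closer to the middle. HOX genes, the clustered regulators of body position, had medians of 69.6 and 63.2 (38 gene bodies), and 18 of them (47.4%) were above the median in both columns against 28% of all. Hoxd8 scored 0.218 and 0.345 and Hoxc13 0.154 and 0.411 in the deposited table, with RNA of 571.9 ± 51.5 and 342.5 ± 19.2 normalized counts in sgControl (SD, n = 3). The median H3K27me3 percentile of HOX genes was 13.4, while the low classes of receptors were near 80.4.

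Genes of the extracellular matrix formed the next high classes. Collagens had medians of 62.7 and 60.8 (44 gene bodies), led by Col14a1 at 0.206 and 0.415 in the deposited table. A list of 18 mesenchymal and matrix genes, which overlaps with them, had 63.3 and 62.6, with Fn1, fibronectin, at 0.119 and 0.446. The 11 immune cell markers just passed at 60.6 and 61.1, with a median RNA of 0.664. Of them 3 (27.3%) lay above the median in both columns, near the 28% of all gene bodies, and 0 were in the concordant high group. The high calls were sensitive to the measure: by mean instead of median percentile 0 of the 39 classes were high, and without the sex chromosomes only HOX and the mesenchymal genes were. Ranked within length bins, collagens, whose median span is 114000 bases, had 57.8 and 56.6 and immune markers 59.2 and 61.9, which ends both calls. HOX genes (72.6 and 65.9) and mesenchymal genes (61.5 and 63.5) stayed high by that ranking. It also made 3 other classes high: clustered histone genes (63.6 and 75.7), keratin-associated proteins (68.1 and 67.8) and keratins (62.3 and 61.9). PRC2 genes became low, at 31.1 and 38.6. Among RNA-tested gene bodies HOX genes had 56.7 and 56.7, collagens 59.2 and 63.5 and mesenchymal genes 60 and 57.6, so none of these 3 was called there. The low calls by mean percentile held for both receptor classes and the protocadherins but not for predicted genes.

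**Figure D2:**
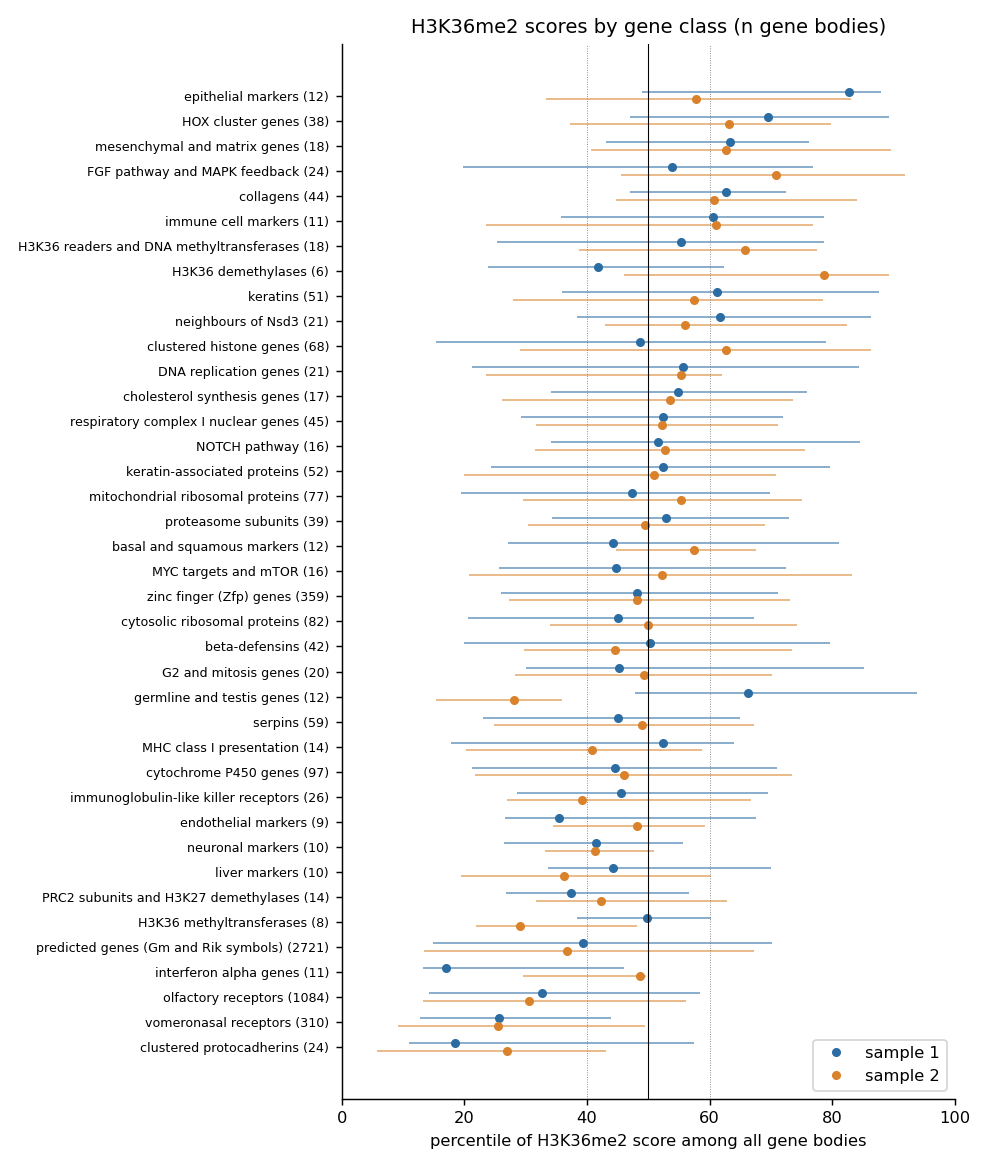
Percentile of the H3K36me2 score among all gene bodies (horizontal axis, 0 to 100) for each gene class with its number of gene bodies, sample 1 in blue and sample 2 in orange. Points are medians and bars run from the 25th to the 75th percentile of the members; vertical lines mark 50 (solid) and the 40 and 60 of the class rule (dotted). Protocadherins and chemosensory receptors lie at or below 32.6 in both columns, while interferon alpha genes (17.0 and 48.6) and germline genes (66.2 and 28.1) are low in 1 column only.

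Several classes stood high in only 1 of the columns. Epithelial markers had medians of 82.7 and 57.8, FGF and MAPK feedback genes 53.8 and 70.9, H3K36 demethylases 41.8 and 78.7, and germline genes 66.2 and 28.1. In a table whose columns rank gene bodies so differently, lists of 6 to 24 genes can move far between columns, and no difference between them was tested. Zinc finger genes, a large class in tandem clusters, sat at 48.2 in both columns, and cytosolic ribosomal proteins at 45.1 and 49.9. Both classes lay near the middle of the columns.

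Of the 12 epithelial markers, 6 lay above the median in both columns, 2 at or below it in both, and 1 in the concordant high group. The 4 named here were chosen for the highest mean percentile. Krt18 and Krt19 encode keratins of simple epithelia and scored 0.141 and 0.32, and 0.175 and 0.198, in the deposited table. The adhesion gene Cdh1 scored 0.132 and 0.332 and the tight junction gene Cldn4 0.19 and 0.32, though their RNA was under 8 normalized counts. RNA of Krt19 was 4226, 3797 and 3708 normalized counts in sgControl and 2706, 2650 and 2673 in sgNSD3. The 2 conditions did not overlap, and the level was 1.46-fold lower with sgNSD3 (limma adjusted p = 2.6e-10). Epcam, a defining epithelial marker, was at 0 in both conditions, and the mesenchymal gene Vim had means of 51160 and 51820.

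Genes listed as H3K36 methyltransferases held no common place in the columns. Nsd3 is listed in the chromatin table under its older symbol Whsc1l1 and scored 0.0517 and 0.0664 there, percentiles of 34.4 and 22.5. Nsd1 scored 0.1 and 0.0172 (percentiles 65.2 and 8.66), Whsc1 (the gene of NSD2) -0.0247 and 0.154 (4.49 and 62.4), Ash1l 0.0624 and 0.0846, and Setd2 0.0875 and 0.166. Of the 8 listed genes, 1 (Setd2) was above the median in both columns and 3 (Nsd3, Ash1l and Setd3) at or below it in both. The list goes beyond the H3K36me2 writers named above, with Setd2, Setd3, Setmar and Smyd2, and whether each acts on this mark was not examined. The 21 neighbours of Nsd3 had medians of 61.7 and 56.0 and did not reach the class rule.

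RNA of Nsd3, the targeted gene, was 14570, 14400 and 14670 normalized counts in sgControl, while the libraries labelled sgNSD3 had 21990, 22010 and 21840. The conditions did not overlap, and the level was 1.51-fold higher, not lower, with the guide (limma adjusted p = 5.86e-14). RNA level alone does not show whether the guide removed the protein. Nsd1 RNA was 1.07-fold higher (limma adjusted p = 0.0239) and Ash1l RNA 1.09-fold higher (limma adjusted p = 0.0278), and either call was lost without sgControl replicate 2 or without any 1 of the sgNSD3 replicates, while Setd2, Setd3, Setmar, Smyd2 and Whsc1 did not pass.

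Median scores differed between chromosomes, though their gene bodies overlapped widely. Median percentiles of the 19 autosomes ranked alike in both columns (rho 0.958 over 19 chromosomes, which share the columns' libraries). Chromosomes 15 (62.0 and 61.8) and 19 (61.2 and 63.3) were highest, and chromosomes 7 (39.2 and 39.3) and 14 (41.4 and 39.0) lowest. Quartiles in sample 1 were 36.5 and 81.6 on chromosome 15 and 17.9 and 63.4 on chromosome 7. Median RNA was 8.3 normalized counts on chromosome 7 and 9.48 on chromosome 14, beside 77.1 for autosomes, and its part was not tested. The 895 gene bodies of X lay at 25.3 and 25.4. Their median scores of 0.0388 and 0.0716 were 0.501 and 0.541 of the autosomal medians of 0.0773 and 0.132. Y genes numbered 64, and 35 of them were in the concordant low group.

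X chromosome genes were also less transcribed, with a median RNA of 2.4 normalized counts beside 77.1 for autosomes. Among gene bodies with RNA tested, the 398 on X still scored below the autosomes, at 0.587 and 0.772 of their median. X held 15.1% of the positioned low group, 0.285% of the high group and 4.21% of all. The labels give no number of X chromosomes in these cells, and its part in the scores was not tested.

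Neighbouring gene bodies resembled each other weakly. Spearman's rank correlation between a gene body and the next on its chromosome was 0.161 in sample 1 and 0.164 in sample 2, nearly the same without overlapping neighbours (0.159 and 0.161), and 0.0489 and 0.0422 at 100 places apart. Agreement between the columns grew with the size of the region. For medians of autosomal windows with at least 5 gene bodies, rho between columns was 0.35 at 0.25 Mb, 0.411 at 1 Mb, 0.472 at 5 Mb, 0.614 at 10 Mb and 0.733 at 20 Mb, beside 0.159 for single autosomal gene bodies. The windows held a median of 7, 10, 32, 62 and 127 gene bodies, and the part of this number in the rise was not tested. Without receptor and predicted genes it still went from 0.225 to 0.655, and among RNA-tested gene bodies from 0.157 to 0.614.

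The extreme 5 Mb windows differed in the genes they held. The lowest was the first window of chromosome 14, with medians of 8.24 and 5.48, in which all 31 gene bodies had predicted symbols. The window from 20 to 25 Mb on chromosome 7, at 17.9 and 18.3, held 54 chemosensory receptors among 107 gene bodies. The highest lay from 65 to 70 Mb on chromosome 10, with medians of 78.0 and 82.7 over 14 gene bodies of which 2 were predicted, and from 25 to 30 Mb on chromosome 19, at 76.1 and 75.6 over 29. Scores of such families of near-identical genes are uncertain, since reads from 1 copy may be placed on another.

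**Figure D3:**
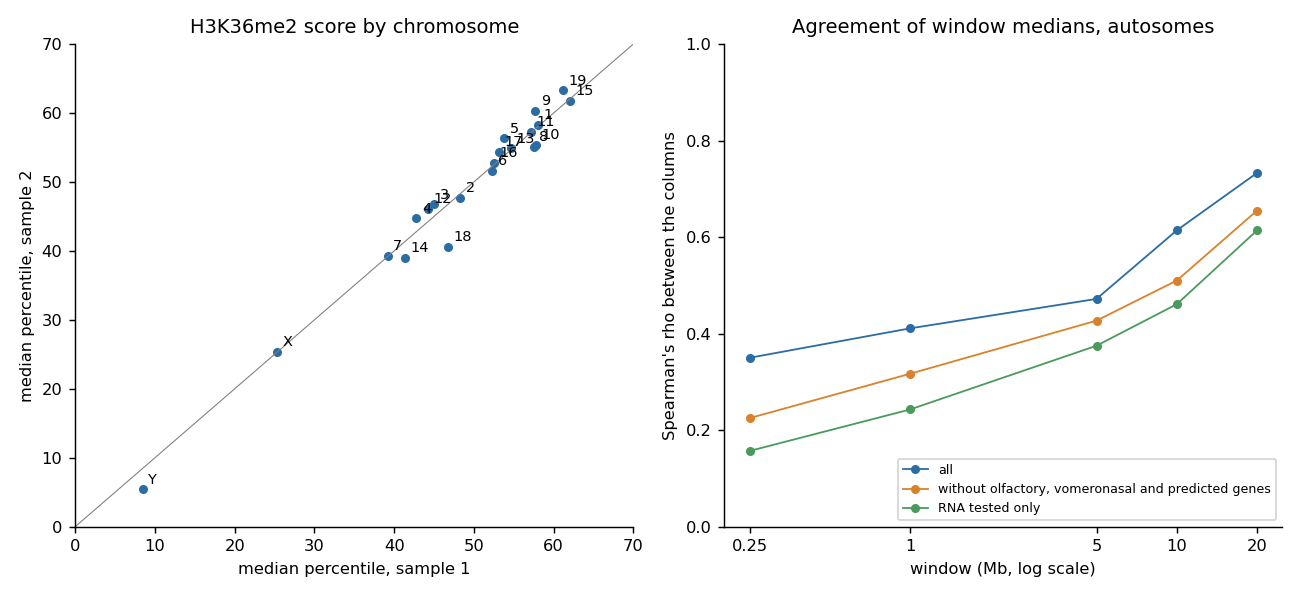
Left, median percentile of the H3K36me2 score per chromosome in sample 1 (horizontal axis) and sample 2 (vertical axis), with the line of equality. Right, Spearman's rho between the columns for medians of autosomal windows against window size in Mb (log scale), for all gene bodies, without chemosensory receptors and predicted genes, and for RNA-tested gene bodies only; X lies at 25.3 and 25.4, and rho reaches 0.733, 0.655 and 0.614 at 20 Mb.

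The H3K36me2 score separated silent from transcribed genes more than it separated levels of transcription. Median percentiles were 33.9 and 33.3 for the 4361 gene bodies with no RNA, 49.7 and 46.1 for those up to 1 normalized count, and 56.6 and 53.7 from 1 to 8. From 8 to 100 normalized counts they were 54.4 and 52.8. In sample 1 they stayed near this level, at 54.5 from 1000 to 10000 and 56.9 above 10000. In sample 2 they went on to 59.4 and 65.3. Above 10000 counts 12 of 194 gene bodies (6.19%) were in the concordant high group and 0 in the low group. The gene bodies with no RNA were also short, with a median span of 4370 bases beside 16200 from 8 to 100 counts. The part of length in their low scores was not tested.

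Promoter CpG content went with the score among genes with RNA under 8 normalized counts, called low-RNA genes here. These are not all silent, since they include the genes from 1 to 8 counts, which lay at 56.6 and 53.7. CpG counts were available for 16689 gene bodies, in RefSeq windows of 250 bases before to 50 after the start. With RNA under 8 normalized counts, median percentiles were 34.4 and 33.4 at 0 to 2 CpG, 43.1 and 42.5 above 2 to 5, 50.6 and 50 above 5 to 10, and 51.1 and 49.5 above 20. Median RNA of these bins rose too, from 0 at 0 to 2 CpG to 0.979 above 20, and its part was not tested. With RNA of 8 or more, the medians were between 51.9 and 56.8 in each CpG bin and column. Median CpG was 2.0 in the low-RNA part of the concordant low group and 6.67 in that of the high group, beside 3.0 for all low-RNA gene bodies. In the parts with RNA of 8 or more it was 17.0 and 19.0, beside 20 for all such gene bodies.

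The difference among low-RNA genes was smaller without chemosensory receptors, where those with 0 to 2 CpG lay at 40.4 and 36. With predicted genes and the sex chromosomes left out as well, they lay at 48.2 and 43.4, and those above 10 to 20 CpG at 54.0 and 52.5. Predicted genes and sex chromosomes were left out together, so their parts cannot be told apart. The CpG-poor low-RNA genes were also short, with a median span of 3350 bases at 0 to 2 CpG and 28200 above 20, and their median H3K27me3 percentile was 78.4. Length, CpG content and RNA level were not separated further.

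**Figure D4:**
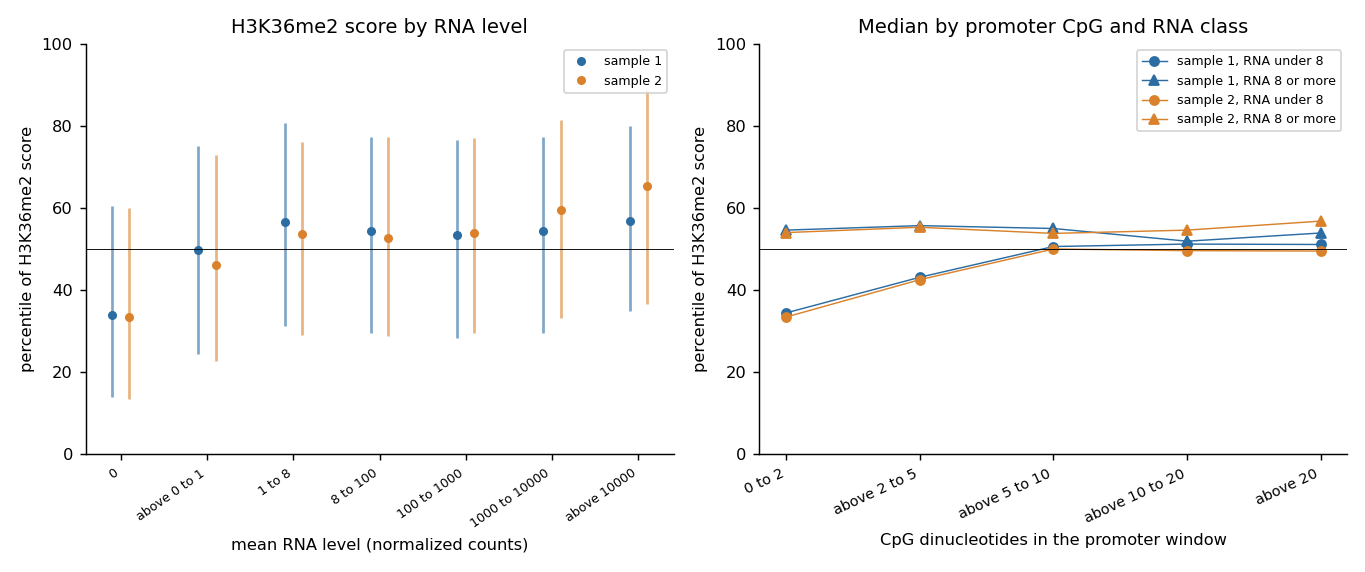
Left, percentile of the H3K36me2 score by mean RNA level in bins of normalized counts, with medians as points and the 25th to 75th percentiles as bars. Right, median percentile by number of CpG dinucleotides in the promoter window, for gene bodies with RNA under 8 (circles) and of 8 or more normalized counts (triangles). Sample 1 is blue and sample 2 orange in both, and genes with RNA under 8 and few CpG are lowest, at 34.4 and 33.4.

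Called RNA changes took a larger share of the concordant high group than of all tested gene bodies, in both directions. RNA was tested for 13218 of the gene bodies, with 836 (6.32%) higher and 1061 (8.03%) lower in sgNSD3-labelled libraries by limma at an adjusted p of at most 0.05. Among all 18263 genes in the RNA test, the shares called were 5.44% higher and 6.44% lower. Recovered read counts scattered more among the sgControl than among the sgNSD3 libraries. Chi-square per degree of freedom between pairs was 2.7 to 8.92 within sgControl and 1.3 to 1.41 within sgNSD3. For sgControl replicate 1 it was 5.97 and 8.92 against replicates 2 and 3, and 7.2 to 7.5 against the sgNSD3 libraries. In the high group 265 were tested, with 34 higher (12.8%) and 32 lower (12.1%). In the low group 95 were tested, with 1 higher (1.05%) and 6 lower (6.32%). Gene bodies high in sample 1 and low in sample 2 had shares near those of the high group, with 8 higher (10.4%) and 9 lower (11.7%) of 77 tested, and those low in sample 1 and high in sample 2 had 4 higher (4.94%) and 7 lower (8.64%) of 81. The median change of the high group was 0.0023 on the deposited log2 scale, beside -0.0052 overall. Tested genes of the high group also had more RNA (median 560 normalized counts against 234 in the low group and 436 overall) and longer spans (31300, 8430 and 23200 bases). Their part in these shares, and the difference between the groups' shares, were not tested. Without sgNSD3 replicate 2, as numbered in the titles, the high group had 22 higher (8.27%) and 21 lower (7.89%), and the low group 3 lower (3.16%). The shares of all tested gene bodies under that setting are not given here, so whether the high group's share stayed larger was not tested.

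Of the high group, Rcan2, a regulator of the phosphatase calcineurin with scores of 0.244 and 0.353, had RNA of 145.2, 129.2 and 133.0 normalized counts in sgControl and 316.2, 316.4 and 317.7 in sgNSD3. The conditions did not overlap, and the level was 2.33-fold higher (limma adjusted p = 2.82e-10). Angpt4, an angiopoietin, had 56.41, 59.33 and 36.54 in sgControl against 110.6, 99.72 and 97.76, and was 2.02-fold higher (limma adjusted p = 6.6e-05). Slc7a11, the cystine transporter, was 1.43-fold higher (478.5 ± 22.8 against 682.8 ± 28.8, SD, n = 3, limma adjusted p = 7.35e-07).

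Other members of the high group fell. Chn1, a Rac GTPase-activating protein, had 177.6, 155.0 and 163.4 in sgControl and 90.94, 87.26 and 97.76 in sgNSD3, again without overlap. It was 1.8-fold lower (limma adjusted p = 1.02e-05). Gm10800, the predicted gene with the extreme scores, was 2.27-fold lower (147.3 ± 25.6 against 64.99 ± 16.7, SD, n = 3, limma adjusted p = 7.25e-06).

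In the low group the single rise was Btbd10, a BTB domain gene, 1.31-fold higher (214.1 ± 14.1 against 280.2 ± 10.2, SD, n = 3, limma adjusted p = 0.00246). Plcg2, a phospholipase of immune receptor signalling, was 1.42-fold lower (206.4 ± 21 against 145.4 ± 14.1, SD, n = 3, limma adjusted p = 0.00176), and the transcriptional repressor Zbtb7b 1.15-fold lower (limma adjusted p = 0.00123). Mafa, a transcription factor of beta cells, was 1.76-fold lower (limma adjusted p = 0.0189), and the X-linked Mageh1 1.93-fold lower (limma adjusted p = 0.0259), from 27.08 ± 4.12 to 14.04 ± 5.16 normalized counts (SD, n = 3). Both rest on few counts. Leaving out sgControl replicate 1 or sgNSD3 replicate 1 ended either call, as did leaving out sgControl replicate 2 or the filter on low counts for Mageh1 and sgNSD3 replicate 2 or 3 for Mafa. Cox7c, a respiratory subunit, was 1.1-fold lower (limma adjusted p = 0.0293), and its call ended without the filter, with quantile normalization, and without sgControl replicate 2 or 3 or sgNSD3 replicate 2 or 3.

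**Figure D5:**
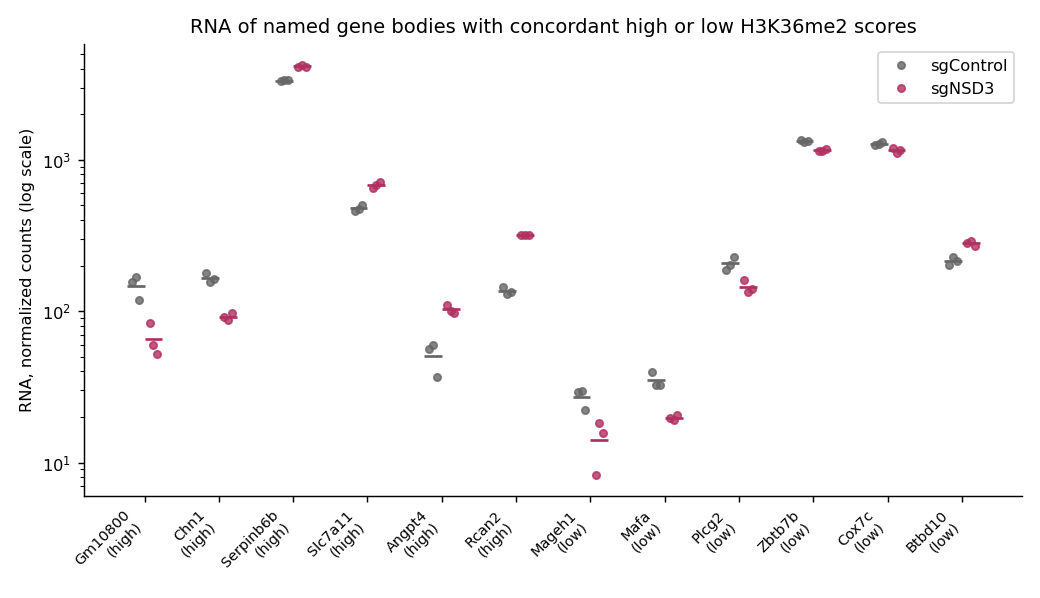
RNA in normalized counts (log scale) of the named gene bodies from the concordant high and concordant low groups, with 1 point per library, 3 for sgControl in grey and 3 for sgNSD3 in red, and a line at each mean. Rcan2 (135.8 to 316.8) and Angpt4 (50.76 to 102.7) have the largest rises of the 12 genes, and Gm10800 the largest fall.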

How the data were processed

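Of the authors' own processing, the submitters' processing notes name HISAT2, featureCounts and DESeq2 with the mm10 build, without versions or settings. The RNA values were deposited by the authors as log2 values on DESeq2's variance-stabilised scale, and undoing that transform returned read counts that were whole numbers within 0.05 for 100% of values, with totals of 20294828 to 21863833. The chromatin table holds signed scores deposited by the authors, with their construction not given in the sources used here. There were 0 other value columns.

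Percentiles were computed over 21995 gene bodies. RefSeq positions on GRCm38.p6 matched 19926 by symbol and 1328 by synonym, and 741 had none; RNA matched 21715. RNA was tested with limma 3.58.1 (eBayes with trend, Benjamini-Hochberg adjustment) in R 4.3.3 on the deposited log2 values of 18263 genes with a mean of at least 8 normalized counts. This step and the ranking were tested on simulated data. The RNA simulation gave all libraries the same small dispersion, without the wider scatter of the sgControl libraries, so it does not show how often unchanged genes were called here. Named genes were the 12 highest and 12 lowest by both percentiles, up to 4 per described list, the listed H3K36 methyltransferases, those at the most opposite ends of the columns, and called genes of the concordant groups. The members, lists and tests were chosen with earlier results of these data known. Figures were drawn with matplotlib 3.10.9.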

Additional observations from a re-analysis of the deposited data

How the results depend on the processing

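The rank agreement between the H3K36me2 columns was 0.116 among RNA-tested gene bodies, and Pearson's r was 0.172 without the most extreme values. The concordant high group had 118 members at a cutoff of 5% and 1239 at 20%, and the low group 100 and 1312, or 281 without predicted symbols. The median H3K27me3 percentile of the high group was 35.8 at the 5% cutoff. High classes numbered 2 among RNA-tested gene bodies, 0 by mean percentile and 2 on autosomes, and low classes 2 among RNA-tested gene bodies. Among RNA-tested gene bodies 0 of the 4 high and 1 of the 4 low classes, the protocadherins, were still called; the others were keratins and serpins (high) and PRC2 genes (low). Spearman's rank correlation between gene bodies 5 places further was 0.107 and 0.0949. X gene bodies with RNA tested lay at a percentile of 34.1 in sample 2. Ranked within length bins, or on autosomes only, 3 genes of the low group were higher in RNA (2.59% and 2.83% of those tested). With 1 library left out, the high group had 22 to 36 genes higher (8.27% to 13.6%) and 21 to 33 lower (7.89% to 12.5%). The low group then had 1 higher (1.03% to 1.06%) and 3 to 7 lower (3.16% to 7.37%). Shares of all tested gene bodies under these settings are not given here. Autosomes only, the windows, the omission of Drg1, Sfi1 and Aida, and limma-voom were chosen after seeing the data.

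Replicate numbers did not pair the samples: correlations of same-numbered deviations were 0.046, 0.0163 and -0.0134 by title. With a replicate block by title number the high group had 36 higher (13.6%) and 35 lower (13.2%) and the low group 1 (1.05%) and 8 (8.42%), against 34, 32, 1 and 6. By description number the counts were 34 (12.8%), 30 (11.3%), 1 (1.05%) and 7 (7.37%). The shares of all tested gene bodies with a replicate block are not given here. The count models planned for recovered reads were not run, because the deposited unit is log2. A different one, limma-voom on recovered reads, was added. It called 33 higher (12.5%) and 32 lower (12.1%) in the high group, and 1 (1.05%) and 7 (7.37%) in the low group. The shares of all tested gene bodies by limma-voom are not given here. Each column gives 1 score per gene body and no spread between libraries, so single scores carry no error.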
